A study of Homo sapiens and Homo sapiens
Mus musculus and Mus musculus with 200 samples.

Results

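TWIST1 binding was compared between RS4;11, a human lymphoblast line, and human cranial neural crest cells (hCNCC). The members were all peaks of 2 deposited peak lists from chromatin immunoprecipitation and sequencing (ChIP-seq): 70826 peaks in RS4;11 and 58395 in hCNCC, of 1806380 peaks over all human lists of the series. A peak was called shared when it overlapped a peak of the other list by at least 1 bp, and otherwise lymphoblast-only (found in RS4;11 alone) or hCNCC-only. This gave 59001 lymphoblast-only peaks, 46189 hCNCC-only peaks, and a shared class of 11825 RS4;11 peaks and 12206 hCNCC peaks. Unless stated otherwise, shared sites are described at the RS4;11 peaks.

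The series holds 200 ChIP-seq samples. Both cell types have genotype WT in the labels, neither had a treatment, and both were precipitated with the same Abcam TWIST1 antibody. H9, a human embryonic stem cell line, was the source of the hCNCC. RS4;11 was established from an acute lymphoblastic leukaemia of early B lineage that carries a KMT2A-AFF1 fusion. There is 1 library of each, so differences between the cell types have no replicate check, and intervals given below (Wilson, 95%) cover counting error only. Other groups used here were WT, TWIST1FV and ALX1FV ALX4- hCNCC. In TWIST1FV, TWIST1 carries a tag for degradation by dTAGV-1 (both replicates are clone c64). ALX1FV ALX4- is an edited line (clone c22) that lacks ALX4 and in which, by its name, ALX1 carries such a tag. For WT and TWIST1FV, 0 h, 3 h and 24 h of dTAGV-1 at 500 nM were used, for ALX1FV ALX4- only 0 h. HEK293, a human embryonic kidney line, was harvested 24 h after transfection with the TWIST1 plasmid pCAG-TWIST1, alone or together with pCAG-ALX4-Flag-HA, or with the plasmid pUC19. RNA from RS4;11 was not analysed here, so its label and its level of TWIST1 were not checked against expression. No input or control list of RS4;11 was used either, and whether the antibody bound TWIST1 alone in these cells was not tested. A list after loss of TWIST1 in RS4;11 was not analysed here.

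TWIST1 is a basic helix-loop-helix (bHLH) factor that binds DNA as a dimer, often with an E protein such as TCF3, TCF4 or TCF12. It recognises E-boxes, 6 bp sites of the form CANNTG whose central bases differ between bHLH dimers. In cranial neural crest TWIST1 is known for its part in mesenchymal fate, and there it binds together with homeodomain factors of the ALX, MSX and PRRX families at a composite of an E-box and a homeodomain site. In B-lymphoid cells the known E-box factors are the E proteins themselves, which drive B cell gene programmes with EBF1 and PAX5.

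Sequences at strong sites of each class show the arrangements of E-boxes that were searched for within 100 bp of the summits. Each stretch of 51 bp is the plus strand of hg38, centred on the motif, which need not lie at the summit itself. Capitals mark only the motif searched for, and in the last pair this includes the homeodomain site. Other E-boxes in the stretches are in lower case. Of the 8 strongest lymphoblast-only sites with different nearest genes, 4 held a double E-box, defined as 2 TWIST1-type E-boxes that lie 5 bp apart. Over whole classes it was rare, near 0.659% of lymphoblast-only, 3.25% of shared and 0.792% of hCNCC-only summits. TWIST1-type E-boxes were taken as CAGATG, which reads as CATCTG on the other strand, together with the palindrome CAGCTG and also the palindrome CATATG. After these 4 come 2 of the 4 strongest shared sites that held one, TMEM119 and CYTH3, then 2 hCNCC-only sites that held neither this nor the next arrangement. None of the 8 strongest hCNCC-only sites held the composite motif, such an E-box 4 bp from a homeodomain word, taken as TAATTA and also as TAATTG with its reverse complement CAATTA. The 2 composite sites shown were therefore chosen after their values were seen, as the strongest hCNCC-only peaks that hold it.
TMEM121, lymphoblast-only, chr14:105818704-105818754: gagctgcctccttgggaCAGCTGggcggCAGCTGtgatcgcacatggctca
KRTAP16-1, lymphoblast-only, chr17:41308603-41308653: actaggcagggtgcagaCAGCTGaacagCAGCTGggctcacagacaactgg
MTX3, lymphoblast-only, chr5:79886993-79887043: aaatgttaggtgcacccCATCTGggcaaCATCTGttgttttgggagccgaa
XYLT1, lymphoblast-only, chr16:17462469-17462519: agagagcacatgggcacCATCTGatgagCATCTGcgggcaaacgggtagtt
TMEM119, shared, chr12:108589324-108589374: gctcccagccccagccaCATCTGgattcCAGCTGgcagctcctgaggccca
CYTH3, shared, chr7:6229040-6229090: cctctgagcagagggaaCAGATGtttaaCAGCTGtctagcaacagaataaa
SEMA3A, hCNCC-only, chr7:84492839-84492889: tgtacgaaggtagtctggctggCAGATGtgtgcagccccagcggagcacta
BMP7, hCNCC-only, chr20:57241924-57241974: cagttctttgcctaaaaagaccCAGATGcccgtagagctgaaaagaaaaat
NPVF, hCNCC-only, chr7:25656882-25656932: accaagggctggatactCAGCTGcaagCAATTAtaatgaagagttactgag
DCDC2, hCNCC-only, chr6:24191478-24191528: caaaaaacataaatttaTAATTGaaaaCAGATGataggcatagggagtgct

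The lists overlapped little. Of the RS4;11 peaks, 16.7% (95% interval 16.4 to 17.0) overlapped an hCNCC peak, and 20.9% (20.6 to 21.2) of the hCNCC peaks overlapped an RS4;11 peak. Among the 20000 peaks of highest fold enrichment in each list, 8.66% of the RS4;11 peaks and 8.67% of the hCNCC peaks were shared. Both lists were shortened there, which leaves fewer possible partners, so these shares do not show how often strong peaks overlap the full lists. Where peaks were shared, the summits lay a median of 57 bp apart, and 47.2% of the 11825 pairs had summits within 50 bp. The RS4;11 peaks were wider, with a median of 569 bp against 473 bp, and 24.6% of the lines of the RS4;11 list were further summits in a peak already listed, against 7.90% in hCNCC.

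The 3 classes differed in where they lay. A peak was called a promoter peak when its summit was within 1000 bp of an annotated transcription start site (TSS), and otherwise distal. Promoter peaks made up 47.6% (46.7 to 48.5) of the shared peaks, 22.7% (22.4 to 23.1) of the lymphoblast-only peaks and 9.16% (8.90 to 9.42) of the hCNCC-only peaks. The median distance to the nearest TSS of a protein-coding gene was 2895 bp for shared, 12891 bp for lymphoblast-only and 38798 bp for hCNCC-only peaks. More than 50 kb from such a TSS lay 17.8%, 25.02% and 44.8% of them, in the same order. The order of the promoter shares, shared above lymphoblast-only above hCNCC-only, was the same under each of the 6 alternatives run. Introns held 55.2% of the lymphoblast-only summits and 59.3% of the hCNCC-only summits, and intergenic DNA 31.2% and 34.8%. Of the promoter peaks of hCNCC 58.3% (57.3 to 59.3) were shared, against 29.5% (28.9 to 30.2) of those of RS4;11. At distal peaks the shares were 13.0% (12.7 to 13.3) and 11.97% (11.7 to 12.3).

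Fold enrichment, the authors' value per peak for signal over local background, was related to sharing differently in the 2 lists. In RS4;11 the median was 11.7 for shared and 7.05 for lymphoblast-only peaks. In hCNCC it was 6.99 for shared and 8.76 for hCNCC-only peaks, but this order rested on promoter peaks and on the overlap rule. At distal peaks the medians were 9.45 for shared and 8.97 for hCNCC-only, and with a reciprocal overlap of 50% the shared median was also the higher, at 1.07 times the other. At promoters the hCNCC medians were 5.71 for shared and 7.51 for hCNCC-only peaks, while the RS4;11 medians were 12.5 and 7.02. Over shared pairs, fold enrichment in one list was weakly related to that in the other, with a Spearman rho of 0.112 over 11825 pairs, 0.230 at promoters and 0.0766 at distal sites. These pairs share their DNA and the antibody.

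**Figure D1:**
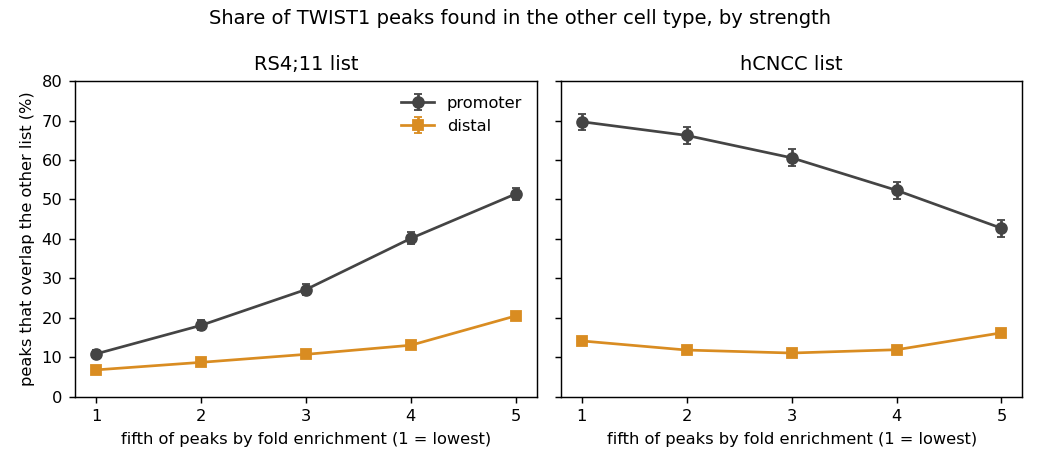
Share of TWIST1 peaks that overlap the other list (y axis, percent) in 5 equal groups by the fold enrichment of the peak in its own list (x axis), for promoter (circles) and distal (squares) peaks, with Wilson 95% intervals. In RS4;11 the shared share rose with enrichment, from 10.9% to 51.4% at promoters, whereas at hCNCC promoters it fell from 69.7% to 42.7%.

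When peaks were divided into 5 equal groups by enrichment, the strongest group of RS4;11 promoter peaks was shared in 51.4% (49.8 to 53.0) and the weakest in 10.9% (9.92 to 11.9). The promoter peaks of hCNCC ran the other way, from 69.7% (67.7 to 71.7) shared in the weakest group to 42.7% (40.6 to 44.9) in the strongest. Distal RS4;11 peaks rose from 6.82% (6.35 to 7.32) to 20.5% (19.7 to 21.3). Distal hCNCC peaks had 14.2% in the weakest group, 11.1% in the middle group and 16.2% in the strongest.

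All 3 classes carried the same kinds of E-box at their summits, but in different shares. At distal lymphoblast-only summits 67.1% of the windows (100 bp to each side of the summit) held a TWIST1-type E-box, as did 67.2% at hCNCC-only and 81.7% at shared summits. In flank windows of the same length, 1000 bp away on both sides, the share was 25.6%, 24.5% and 25.9%. CAGATG, the E-box most often described for TWIST1 dimers, was in 56.4% (55.2 to 57.6) of shared, 41.1% (40.7 to 41.6) of lymphoblast-only and 44.2% (43.8 to 44.7) of hCNCC-only distal windows. Over all peaks, promoters included, CAGATG was in 42.2% of shared and 43.9% of hCNCC-only windows, so the order of these classes was turned there. CAGCTG was in 39.7% (38.5 to 40.9) of shared, 32.9% (32.4 to 33.3) of lymphoblast-only and 23.9% (23.4 to 24.3) of hCNCC-only distal windows, against 9.93%, 9.52% and 7.47% in the flanks. CATATG had another order, with 12.3% (11.96 to 12.6) in hCNCC-only, 8.01% (7.36 to 8.72) in shared and 6.53% (6.31 to 6.76) in lymphoblast-only windows, against 5.64%, 4.06% and 4.27% in the flanks. The flanks differ between classes too, and the part of base composition was not tested.

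CACCTG, an E-box known from E proteins and SNAI repressors, was in 24.5% of distal lymphoblast-only windows and 16.2% of hCNCC-only windows, but the flanks held 19.9% and 14.8%, so that the ratio of summit to flank was 1.23 and 1.09. CACGTG, known from MYC and related factors, was in 5.49% of lymphoblast-only and 2.57% of hCNCC-only distal windows, with 2.68% and 1.85% in the flanks. CACATG was near 26% in each class (25.7%, 27.1% and 25.3% for lymphoblast-only, shared and hCNCC-only), with 13.2%, 12.7% and 13.0% in the flanks.

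**Figure D2:**
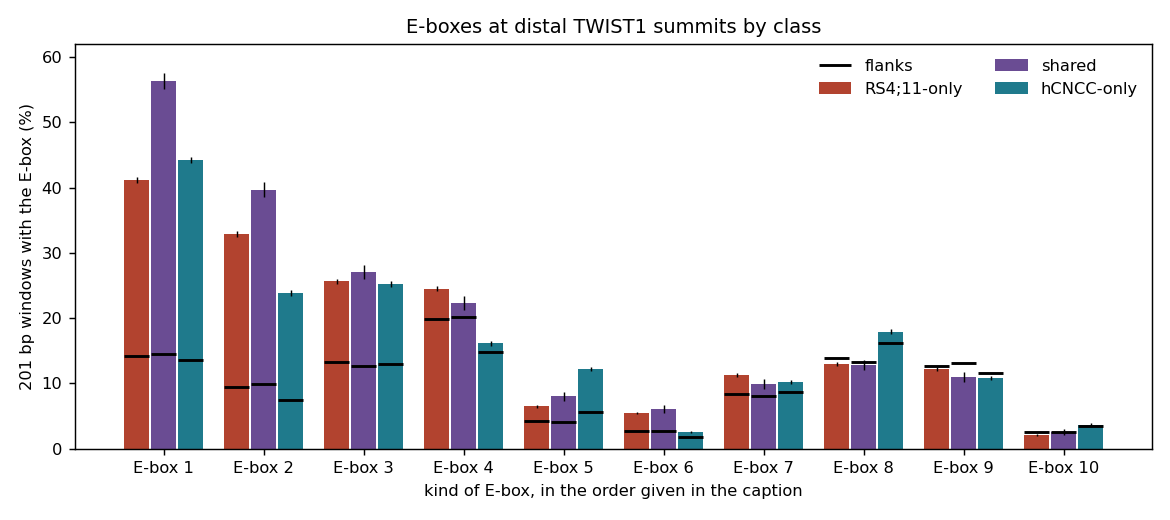
Percent of distal summit windows (100 bp to each side) (y axis) that hold each of the 10 kinds of E-box (x axis), for lymphoblast-only (RS4;11-only), shared and hCNCC-only peaks, with Wilson 95% intervals, and black lines mark windows 1000 bp away. On the axis E-box 1 is CAGATG, E-box 2 is CAGCTG, E-box 3 is CACATG, E-box 4 is CACCTG, E-box 5 is CATATG, E-box 6 is CACGTG, E-box 7 is CAACTG, E-box 8 is CAAATG, E-box 9 is CAAGTG and E-box 10 is CAATTG. The share of CAGATG is highest in shared peaks at 56.4%, and that of CATATG in hCNCC-only peaks at 12.3%.

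Arrangements of sites separated the classes further. The double E-box was in 5.13% (4.61 to 5.71) of distal shared windows, against 0.763% (0.688 to 0.848) of lymphoblast-only and 0.796% (0.715 to 0.886) of hCNCC-only windows. The flanks held it in 0.0726%, 0.0636% and 0.05005%. At the hCNCC summits of the shared sites the share was 4.99% (4.48 to 5.55). The share rose with enrichment within the shared class, from 2.10% of the weakest to 9.52% of the strongest of 5 groups of distal RS4;11 peaks. In the strongest group of lymphoblast-only peaks it was 1.29%, and in the strongest group of hCNCC-only peaks 1.14%. The composite of an E-box and a homeodomain site was in 3.16% (3.00 to 3.34) of distal hCNCC-only windows and in 0.435% (0.299 to 0.633) of shared windows, or 1.21% (0.966 to 1.51) at the hCNCC summits of the same sites. It was in 15 of 45587 distal lymphoblast-only windows, 0.0329% (0.0199 to 0.0543), where the flanks held it in 0.0384%.

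**Figure D3:**
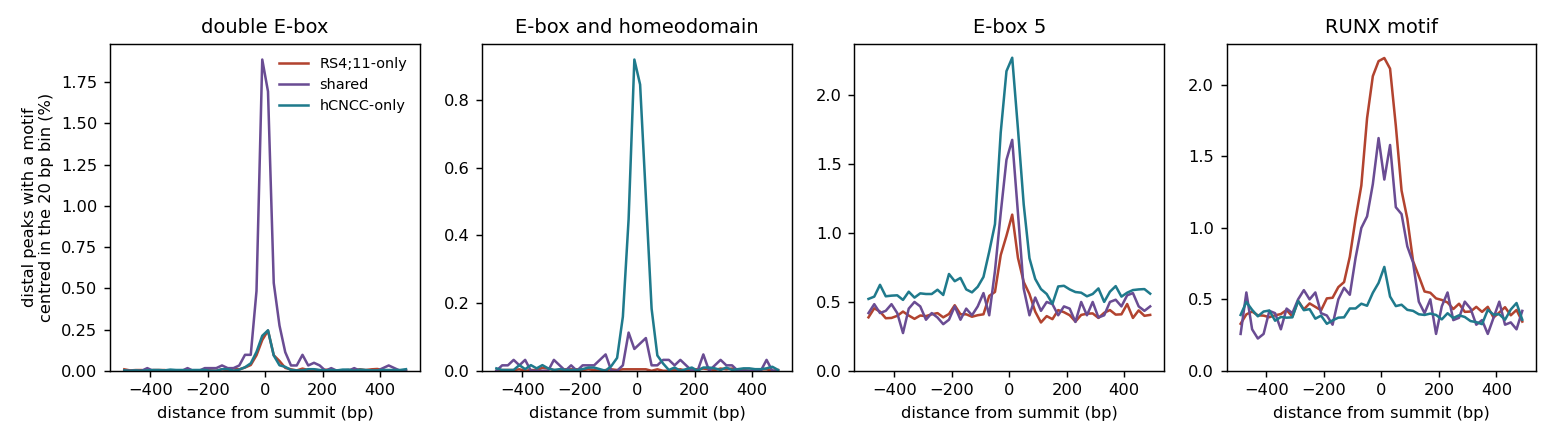
Percent of distal peaks with a motif centred in each 20 bp bin (y axis) by distance from the summit in bp (x axis), for RS4;11-only, shared (RS4;11 summit) and hCNCC-only peaks. The y axes differ between panels. The double E-box peaks at 1.89% in shared sites, the composite (E-box and homeodomain) at 0.9199% and E-box 5 (CATATG) at 2.27% in hCNCC-only sites, and the RUNX motif at 2.19% in RS4;11-only sites.

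Short motifs of other factor families, searched on both strands after the E-box values had been seen, also differed by class. The RUNX core TGTGGTT, bound by RUNX1 in blood cells, was in 15.2% (14.8 to 15.5) of distal lymphoblast-only windows, 11.0% (10.2 to 11.8) of shared and 4.87% (4.67 to 5.08) of hCNCC-only windows, against 3.71%, 3.41% and 3.67% in the flanks. The homeodomain words defined above were in 27.4% (26.9 to 27.8) of distal hCNCC-only windows, with 18.0% in the flanks. In distal lymphoblast-only windows they were in 7.11% (6.87 to 7.34), below the 13.4% of the flanks. The ETS core CCGGAAG was in 8.22% (7.76 to 8.69) of lymphoblast-only promoter windows and 10.1% (9.32 to 10.9) of shared promoter windows, against 1.51% (1.19 to 1.93) at hCNCC-only promoters. Flanks of the same promoter peaks held it in 1.39%, 1.66% and 1.17%. The AP-1 core TGACTCA differed less, with 4.87% of distal lymphoblast-only and 3.62% of hCNCC-only windows.

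Most lymphoblast-only sites were absent from every other hCNCC TWIST1 list compared. Of the lymphoblast-only peaks 87.9% overlapped no peak in any of 6 further hCNCC lists (WT, TWIST1FV and ALX1FV ALX4-, all at 0 h), as against 5.76% of shared and 10.6% of hCNCC-only peaks. In WT hCNCC at 0 h, 4.12% ± 1.37 (SD, n = 2) of the lymphoblast-only peaks, 73.2% ± 5.20 of the shared and 74.6% ± 5.23 of the hCNCC-only peaks were found again. ALX1FV ALX4- cells at 0 h held 76.6% ± 5.29 of the shared and 61.6% ± 5.46 of the hCNCC-only peaks, as a mean of 2 replicates. The replicate values were 80.4% and 72.9% for shared and 65.5% and 57.8% for hCNCC-only peaks, so those ranges did not overlap. The 0 h lists hold 59282 and 49107 peaks for WT, 52890 and 43274 for ALX1FV ALX4-, and 33479 and 25034 for TWIST1FV. The part of list length in these shares was not tested. In TWIST1FV hCNCC at 0 h, 0.864% ± 0.668 of the lymphoblast-only, 47.0% ± 8.34 of the shared and 46.0% ± 7.45 of the hCNCC-only peaks were listed (SD, n = 2). In the same line 3 h after dTAGV-1, whose lists hold 835 and 739 peaks, none of the lymphoblast-only peaks was listed, with 1.83% ± 0.233 of the shared and 1.17% ± 0.0720 of the hCNCC-only peaks. In HEK293 cells given TWIST1 (1 library) 17.4% (17.1 to 17.7) of the lymphoblast-only, 55.2% (54.3 to 56.0) of the shared and 9.88% (9.61 to 10.2) of the hCNCC-only peaks were listed. At distal sites the HEK293 shares were 12.6%, 38.9% and 8.62%. When ALX4 was given with TWIST1 (1 library) they became 11.0%, 45.3% and 19.2% of all peaks of the 3 classes, so the hCNCC-only share was higher and the other two were lower. The lists differ in length (50196 and 64536 peaks). The list of the V5 antibody in HEK293 cells given pUC19, which has no V5 protein from a plasmid, held 0.200%, 0.710% and 0.0368% of the classes.

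Distal RS4;11-only sites were largely outside the hCNCC regions of open chromatin, whereas most of those at promoters were inside. Over all RS4;11-only peaks 38.5% (38.1 to 38.9) overlapped such a region. Of distal RS4;11-only peaks 29.8% (29.4 to 30.3) overlapped one of the 213151 merged ATAC-seq peaks over which the authors counted hCNCC reads, against 92.3% (91.6 to 92.96) of shared and 80.8% (80.5 to 81.2) of hCNCC-only distal peaks. At promoters the shares were 68.0%, 98.8% and 85.9%. AP2a, a neural crest factor, was listed in hCNCC (antibody of Novus Bio, 1 library) at 31.2% of RS4;11-only promoter peaks and 2.06% of RS4;11-only distal peaks. It was listed at 70.8% and 25.2% of the shared peaks, and at 26.6% and 10.47% of the hCNCC-only peaks.

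Among the strongest RS4;11-only sites 3 were at promoters. The highest fold enrichment of the list, 502, was 39 bp downstream of the TSS of SMPD4, a sphingomyelinase (chr2:130155968-130158782), and the next among these sites, 418, was 131 bp upstream of GNA11, a G protein alpha subunit (chr19:3117157-3119422). The third, at 326, had TMEM121 as its nearest protein-coding gene but lay 291652 bp from it, inside the immunoglobulin heavy chain locus (chr14:105815488-105819644). Then followed sites at KRTAP16-1, a hair keratin-associated protein (323, in a coding exon), GNAZ, another G protein subunit (315), MTX3 (307), CFAP418 (292) and XYLT1, a xylosyltransferase of proteoglycan synthesis (284). Of these 8 sites, 6 were in none of the 6 further hCNCC lists, while 5 were listed in HEK293 cells given TWIST1. The sites at GNAZ and CFAP418 were each in 2 of the 6 hCNCC lists. RUNX1, PTPRC, which encodes the leukocyte antigen CD45, and IRF8, a lymphoid and myeloid factor, had their own strongest RS4;11 peaks, shared ones included, at 64.4, 90.7 and 272. Among other genes with a large excess of lymphoblast-only peaks, the values were 195 at ADARB2, 137 at ADGRD1 and 70.6 at LDLRAD4.

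Among the strongest hCNCC-only sites 1 was at a promoter. The highest fold enrichment, 278, was 132 bp upstream of SEMA3A, which encodes a secreted semaphorin (chr7:84491473-84493331). The others were at THADA (269), NKD1, an inhibitor of WNT signalling (243), BMP7, a BMP ligand (243, in an intron 2161 bp from its TSS), PLXNA4, a semaphorin receptor (239), NGFR, a neural crest surface marker (238), ALOX5AP (231) and WIF1, a secreted WNT inhibitor (224). Each of these 8 was in all 6 of the further hCNCC lists, and 2 of them, at NKD1 and ALOX5AP, were listed in HEK293 cells given TWIST1. The composite sites at NPVF and DCDC2 had fold enrichments of 203 and 193.

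The shared sites that ranked highest in both lists were all distal. The site nearest to RNF175, in an intron (chr4:153730987-153732231) had a fold enrichment of 217 in RS4;11 and 236 in hCNCC, and the site near TMEM119 (chr12:108588872-108589766) 219 and 149. The site nearest to TRIQK had 333 and 140, and the site nearest to STC1, a secreted glycoprotein hormone, 194 and 157. The values were 192 and 150 at STX8, 203 and 131 at SOX5, a SOX factor of cartilage and neural crest, 182 and 132 at C12orf50, and 189 and 125 at CYTH3. Each was in all 6 further hCNCC lists and 7 of the 8 were listed in HEK293 cells given TWIST1, RNF175 being the exception. A double E-box lay in the window at 4 of the 8 (TMEM119, TRIQK, STC1 and CYTH3), and CAGATG in the window of all 8.

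Peaks were counted per gene. By nearest TSS of a protein-coding gene, the largest excess of lymphoblast-only over hCNCC-only peaks was at TMEM121, with 130 against 0. Next were TRAPPC9 (65 against 4), ADARB2 (66 against 13), GSE1 (69 against 24) and RUNX1, a master factor of blood (57 against 12). IQSEC1, ARID1B, PTPRC, ADGRD1 and LDLRAD4 completed the 10, with 48 to 63 lymphoblast-only and 4 to 20 hCNCC-only peaks each. The largest excess of hCNCC-only peaks was at ROBO1, a receptor of axon guidance (85 against 10), EFNA5, an ephrin ligand (73 against 8), NR2F2 (67 against 4) and CDH11, the cadherin of mesenchyme (71 against 13). ADGRL2, ROBO2, HAS2, RUNX1T1, SOX9 and NR2F1 followed, with 54 to 75 hCNCC-only and 2 to 18 lymphoblast-only peaks. NR2F1 and NR2F2 are nuclear receptors of neural crest identity, and SOX9 is a factor of neural crest and cartilage with 60 hCNCC-only, 1 shared and 7 lymphoblast-only peaks. Among the genes with the most shared peaks were GSE1 (28) and BCOR, a corepressor (27), with 13 to 16 at RAD51B, SEPTIN9, ZMIZ1, JARID2, ZFHX3, NTMT1 and UBASH3B. Genes in long intergenic stretches collect more peaks under this rule. The strongest peak counted at TMEM121 lay inside the immunoglobulin heavy chain locus, whose segments are not protein-coding genes in the annotation. That locus held 120 lymphoblast-only peaks, which overlap the 130 of TMEM121 to an extent that was not counted.

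Most B-lymphoid genes had more lymphoblast-only peaks and most neural crest genes more hCNCC-only peaks. Over all 19962 protein-coding genes, 49.3% had more lymphoblast-only than hCNCC-only peaks, 21.6% had more hCNCC-only peaks, and the rest had equal numbers. Of 24 B-lymphoid genes, 22 had more lymphoblast-only peaks (91.7%), with a median of 9 lymphoblast-only and 1 hCNCC-only peak per gene against 1 and 0 over all genes. The other two were LEF1 and MME. At promoters 20 of the 24 (83.3%) had an lymphoblast-only peak, against 40.2% of all genes. The highest fold enrichments in the RS4;11 list were at IL7R, the interleukin-7 receptor (150), BCL11A (124), MME, the surface antigen CD10 (107), IGLL1, a part of the surrogate light chain (96.9), BACH2 (94.8) and IKZF3 (94.6). EBF1, the B cell specification factor, had 59 lymphoblast-only, 8 shared and 29 hCNCC-only peaks, and PAX5 had 18 lymphoblast-only and 3 hCNCC-only peaks. VPREB1, DNTT and CIITA had 21, 12 and 12 lymphoblast-only peaks and no other peak.

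Of 30 neural crest and cranial mesenchyme genes, 25 had more hCNCC-only peaks (83.3%), 4 had more lymphoblast-only peaks (SNAI1, SOX10, FOXC1 and FOXC2) and FOXD3 had equal numbers. The list had 486 hCNCC-only and 111 lymphoblast-only peaks. The highest fold enrichments in hCNCC were at MSX1, a homeodomain factor (226), SOX9 (189), ETS1 (137), LMX1B (135), TFAP2A, the gene of AP2a (126), and PAX3 (113). At ETS1 the highest value in RS4;11 was close to this, at 134, with 55 hCNCC-only, 24 lymphoblast-only and 10 shared peaks. ALX4, the homeodomain factor studied with TWIST1 in this series, had 23 hCNCC-only peaks and none in RS4;11, and PRRX2 had 8 and none. TWIST1 itself had 3 shared peaks, 2 of them at its promoter, with 7 hCNCC-only and no lymphoblast-only peak. The highest fold enrichments at TWIST1 were 14.4 in RS4;11 and 16.9 in hCNCC.

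Genes known as targets of KMT2A fusions had more lymphoblast-only peaks at 13 of 16 (81.2%), and blood transcription factors at 14 of 16 (87.5%), with none of the latter having more hCNCC-only peaks. CDK6, a cell cycle kinase, had 45 lymphoblast-only and 4 hCNCC-only peaks, MEF2C 36 and 20, MBNL1 31 and 9, BCL2, an inhibitor of apoptosis, 30 and 2, and MEIS1 19 and 15. HOXA9 had 2 and 1. RUNX2 went the other way, with 16 lymphoblast-only and 20 hCNCC-only peaks, the 1 gene of these 16 to do so. T and myeloid genes, markers of lineages other than B, had more lymphoblast-only peaks at 11 of 16 (68.8%). Ribosomal protein genes, expressed in all cells, had more at 17 of 24 (70.8%), and an lymphoblast-only promoter peak at 15 of 24 (62.5%) and a shared one at 9. Both shares were above those over all genes, 49.3% and 40.2%.

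E proteins are partners of bHLH factors, and ID factors inhibit them. Of these 7 genes, 6 had a shared promoter peak (85.7%), against 23.1% of all genes. TCF4 had 53 hCNCC-only and 15 lymphoblast-only peaks, whereas TCF3 had 1 and 13. ID2 had 26 and 51, and ID4 20 and 7. The strongest peaks at ID1 had fold enrichments of 166 in RS4;11 and 127 in hCNCC, and those at ID3 134 and 123. Of 18 genes of mesenchymal adhesion and matrix, 10 (55.6%) had more hCNCC-only and 8 (44.4%) more lymphoblast-only peaks. Over all genes these shares were 21.6% and 49.3%. A shared promoter peak was at 9 of the 18 (50.0%), against 23.1% of all genes. Of 8 pluripotency genes, 4 (50%) had more hCNCC-only and 2 (25%) more lymphoblast-only peaks.

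**Figure D4:**
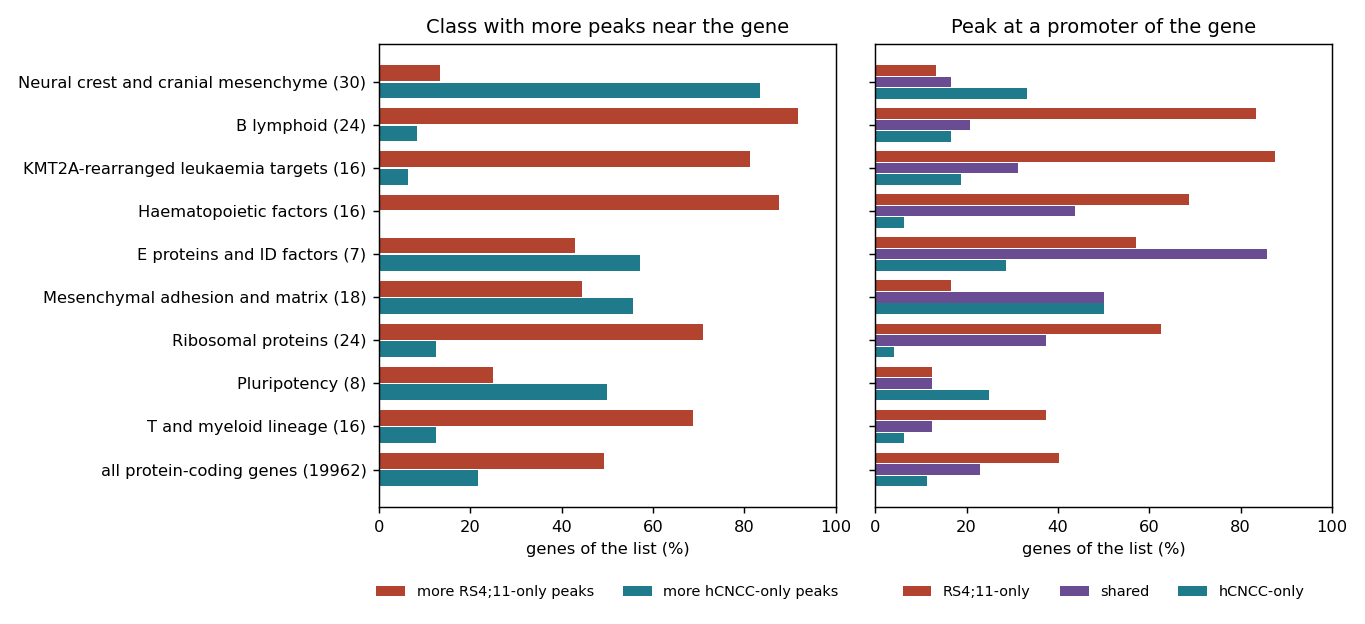
Percent of the genes of each list (x axes) with more RS4;11-only or more hCNCC-only peaks by nearest TSS (left), and with a promoter peak of each class (right), for 9 lists and all protein-coding genes, with the number of genes in brackets. B-lymphoid genes stand at 91.7% with more RS4;11-only peaks and neural crest genes at 83.3% with more hCNCC-only peaks.

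The active chromatin mark H3K27ac in hCNCC was counted at ATAC peaks, which were divided by the TWIST1 lists they overlap: 12459 overlapped both lists, 39628 only the hCNCC list, 25936 only the RS4;11 list and 135128 neither. In WT at 0 h the median log2 CPM (counts scaled to the library's total) of distal ATAC peaks was 2.12 ± 0.0236 (SD, n = 2) for both lists, 1.72 ± 0.0234 for hCNCC alone, 0.25 ± 0.0475 for RS4;11 alone and 0.01 ± 0.149 for neither. At promoters the medians were 4.32 ± 0.0272, 2.42 ± 0.0306, 2.87 ± 0.0230 and 0.17 ± 0.0770. Distal regions bound in RS4;11 alone had a level above that of distal regions in neither list and below that of regions bound in hCNCC alone, in both replicates. Promoters bound in RS4;11 alone had a level above that of promoters bound in hCNCC alone in both replicates.

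After loss of TWIST1, lower H3K27ac was most frequent, of the 4 classes, at ATAC peaks bound in hCNCC alone. At those bound in RS4;11 alone, and also at those in neither list, it was rarer than over all peaks. In a quasi-likelihood fit with edgeR, adjusted by Benjamini-Hochberg over 123361 ATAC peaks, 4.28% of all peaks were lower and 1.01% higher at 3 h in TWIST1FV. Among peaks that overlapped only the hCNCC list 13.8% were lower and 0.548% higher, and among those in both lists 5.17% and 0.900%. Among peaks of the RS4;11 list alone 19 of 18221 (0.104%) were lower and 1.301% higher, and among those in neither list 0.378% and 1.18%. The class in both lists was divided by position at 3 h. At distal peaks 9.68% of it was lower (5.14% of all distal peaks) with a median log2 fold change of -0.27, and at promoters 1.301% (1.43% of all promoter peaks) with a median of 0.14. At 24 h 9.49% of all peaks were lower and 4.28% higher. The lower share was 29.1% for hCNCC alone, 13.6% for both and 0.483% for RS4;11 alone, and the higher share 2.10%, 2.05% and 3.51%. For peaks in neither list the lower share was 1.15% and the higher share 6.06%. At distal ATAC peaks the classes bound in hCNCC were closer, with 29.8% lower for hCNCC alone and 23.9% for both at 24 h, against 11.1% of all distal peaks, and median log2 fold changes of -0.88 and -0.49. At promoters the shares were 23.2% and 4.74%, against 4.24% of all promoter peaks. The medians of distal RS4;11-alone peaks and of distal peaks in neither list were 0.29 and 0.32 at 24 h.

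In WT cells given dTAGV-1, edgeR called 0 of 120860 peaks at 3 h and at 24 h, with 4138 and 4323 peaks at an unadjusted p below 0.05 (3.42% and 3.58%) and 0 called by DESeq2. The WT medians of the classes lay within 0.03 of 0 at promoters and at distal peaks, apart from -0.034 at 3 h for promoters of RS4;11 alone. Nothing in the sources used here says that replicates came from separate cultures, so p-values measure the spread between these samples, which may be technical. Scaling to library size alone moved the median log2 fold change of all peaks from 0.02 to 0.11 at 3 h and from 0.03 to 0.16 at 24 h, and the levels are relative to this choice. Without replicate 1 of 0 h, the 3 h share of lower peaks fell to 6.15% for hCNCC alone and 2.41% for both, and without replicate 2 of 3 h the share for both was 3.44%. The 24 h shares without replicate 2 of 24 h were 18.2% and 8.49%, and without replicate 1 of 0 h that for hCNCC alone was 19.0%. With any 1 library left out, the lower share for RS4;11 alone lay between 0.0333% and 0.227% at 3 h and between 0.210% and 0.613% at 24 h. The higher share for RS4;11 alone at 3 h fell to 0.529% without replicate 1 of 0 h and 0.539% without replicate 2 of 0 h, when that of all peaks was 0.474% and 0.484%. With the replicate number as a block it was 4.88%, with 5.14% for both and 3.19% for all peaks.

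**Figure D5:**
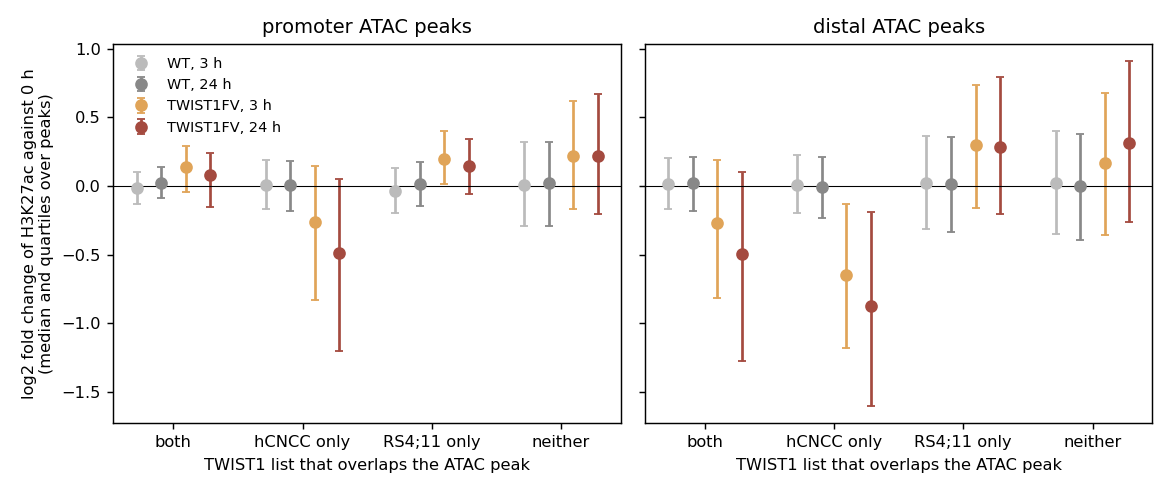
Log2 fold change of H3K27ac against 0 h (y axis; points are medians and bars quartiles over ATAC peaks) by the TWIST1 list that overlaps the ATAC peak (x axis), at promoter (left) and distal (right) peaks, in WT and TWIST1FV hCNCC after 3 h and 24 h of dTAGV-1. Medians fell in TWIST1FV for distal peaks bound in hCNCC, to -0.88 for hCNCC alone and -0.49 for both lists at 24 h. They stood at 0.29 for RS4;11 alone and 0.32 for neither list.

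At the named sites themselves, H3K27ac at the distal shared site of TRIQK had 60.6 and 48.1 CPM at 0 h, 10.4 and 12.7 CPM at 3 h, and 5.36 and 6.12 CPM at 24 h. Both 0 h values were above all later ones (log2 fold change -2.26 at 3 h, adjusted p = 3.82e-05 by edgeR, and -3.22 at 24 h, adjusted p = 2.85e-07). The shared RNF175 site had 140 and 125 CPM at 0 h, 53.6 and 31.1 at 3 h and 47.5 and 22.7 at 24 h. At the hCNCC-only THADA site the values were 116 and 112 at 0 h, 33.2 and 32.0 at 3 h and 19.2 and 14.3 at 24 h (log2 fold change -2.74 at 24 h, adjusted p = 1.36e-07 by edgeR). The ATAC peak at the SEMA3A promoter had 43.0 and 33.9 CPM at 0 h and 12.7 and 10.1 at 24 h, and that at the DCDC2 composite site 23.3 and 18.2 at 0 h and 3.12 and 2.55 at 24 h. At NKD1 the groups overlapped at 24 h, with 122 and 90.0 CPM at 0 h and 103 and 62.9 at 24 h (adjusted p = 0.438 by edgeR). Of the lymphoblast-only named sites only GNAZ and CFAP418 had an ATAC peak within 100 bp of the summit, with at most 2.18 CPM in any TWIST1FV library.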

How the data were processed

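TWIST1 ChIP-seq peaks of RS4;11 and hCNCC, TWIST1, AP2a and V5 peaks of other libraries, and H3K27ac counts of TWIST1FV and WT hCNCC were used. The authors deposited narrowPeak lists, called per library, with a fold enrichment (a ratio over background), a -log10 p and a -log10 q per peak, by the standard column order. The submitters' processing notes name Bowtie2 2.4.1, SAMtools 1.10, MACS2 2.2.7.1 and deepTools 3.5.0, without settings or control. The build is hg38 per the labels. The lowest -log10 q was 1.304 in both lists. Read depth behind the lists is unknown. The deposited H3K27ac counts are whole-number, unnormalised counts per merged ATAC peak, with totals of 7163998 to 8817125 per library in TWIST1FV and 7080398 to 9173063 in WT. At least 76.7% of counts of 20 or more were even in each TWIST1FV library. The mouse spike-in was not used.

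Where an interval was listed with several summits, the summit of highest -log10 p was kept. Peaks were annotated with GENCODE 44, in which immunoglobulin segments are not protein-coding genes. Coordinates count from 1. Motifs were searched on both strands. H3K27ac counts were tested with edgeR 4.0.16 (TMM, filterByExpr, 1 fit of 3 times with 2 replicates, FDR 0.05), and DESeq2 1.42.0 was an alternative, after a check on simulated data. CPM used TMM factors, and log2 CPM had a prior count of 2. Groups came from the sample titles. Members, gene lists and tests were chosen with earlier results of these data known. Named sites were the 8 of highest fold enrichment per class with different nearest genes (shared: best lower rank of the 2 lists). Named genes were the 10 with the largest excess of peaks each way or the most shared peaks, and up to 6 list members of highest fold enrichment; other genes named were chosen after their values were seen. Of the genes that this rule names, 1 is not reported here.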

Additional observations from a re-analysis of the deposited data

How the results depend on the processing

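Of 156 recomputed main values, 66 stayed within their error or within 1.5 times, and of 636 recomputed values in all 7 changed direction. The causes were not tested. The shares of RS4;11 and of hCNCC peaks in the other list were 7.97% and 9.66% with a reciprocal overlap of 50%, 10.46% and 12.7% with summits within 100 bp, 11.4% and 14.6% at a -log10 q of at least 10, and 8.66% and 8.67% for the 20000 strongest peaks. Against the WT 0 h lists, 17.1% and 14.2% of RS4;11 peaks overlapped. The promoter shares of lymphoblast-only, shared and hCNCC-only peaks were 17.5%, 40.9% and 5.65% within 500 bp of a TSS, 33.5%, 56.5% and 17.6% within 2500 bp, and 17.9%, 42.1% and 5.89% with TSSs of protein-coding genes. They were 25.8%, 39.1% and 15.0% with reciprocal overlap and 27.6%, 40.1% and 8.50% at the stricter q, and for the 20000 strongest peaks the first 2 were 27.3% and 31.7%. The median enrichment of shared over unshared RS4;11 peaks was 1.49 with reciprocal overlap, 1.598 at the stricter q and 1.54 at distal peaks. In hCNCC it was 0.974 at the stricter q and turned to 1.07 with reciprocal overlap and 1.05 at distal peaks. CAGATG was in 28.6%, 35.1% and 34.7% of the 3 classes in windows of 50 bp to each side, in 39.5%, 52.4% and 45.9% at the stricter q, and in 41.1% and 56.4% of distal lymphoblast-only and shared peaks. The double E-box was in 0.544% of lymphoblast-only and 0.660% of hCNCC-only short windows, in 0.829%, 5.23% and 0.962% of the 3 classes at the stricter q, and in 0.763% and 5.13% of distal lymphoblast-only and shared peaks. The composite was in 0.0136% of lymphoblast-only and 2.69% of hCNCC-only short windows, in 0.440% of shared and 3.53% of hCNCC-only peaks at the stricter q, and in 0.435% of distal shared peaks. With reciprocal overlap, the WT 0 h lists held 1.47%, 37.2% and 68.95% of the classes. Within 50 kb of the TSS, neural crest genes had 48 lymphoblast-only and 181 hCNCC-only peaks, and B-lymphoid genes had 59 hCNCC-only peaks.

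Without a filter on low counts, the share of H3K27ac peaks lower at 3 h was 1.91% of all, 8.66% for hCNCC alone and 0.0501% for RS4;11 alone, and at 24 h 4.94% of all and 0.266% for RS4;11 alone. DESeq2 gave 0.296% for RS4;11 alone at 24 h. At a -log10 q of at least 10 in both TWIST1 lists, 8.76% and 21.4% of the peaks in both lists were lower at 3 h and 24 h. Leaving out 1 library at a time, the 3 h share ranged from 1.65% to 4.42% for all, 2.41% to 6.29% for both, 6.15% to 15.4% for hCNCC alone and 0.0333% to 0.227% for RS4;11 alone. At 24 h it ranged from 5.25% to 9.04%, 8.49% to 15.3%, 18.2% to 30.5% and 0.210% to 0.613%. The shares of higher peaks ranged, in the same order, from 0.474% to 1.26%, 0.379% to 1.39%, 0.239% to 0.759% and 0.529% to 1.78% at 3 h, and from 2.08% to 4.43%, 0.934% to 2.50%, 1.08% to 2.30% and 1.62% to 3.98% at 24 h. Where 1 library was left at a time, it was assumed to vary like the other groups. Of 26 called changes at named sites, 19 kept their call in every alternative, and 7 lost it on leaving out a library, 6 of them without replicate 1 of 0 h. The log2 fold change at GNAZ at 3 h turned to 0.017 with library size alone, to 0.077 without replicate 1 of 0 h and to 0.50 without replicate 2 of 3 h, and its range without 1 library was -0.96 to 0.50. That at NKD1 ranged from -0.62 to 0.065 at 3 h and from -0.72 to 0.016 at 24 h, the positive values being without replicate 2 of that time.

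With the replicate number as a replicate block, the 3 h shares were 7.28% of all, 9.68% for both, 22.7% for hCNCC alone and 0.291% for RS4;11 alone, and the 24 h shares 11.9%, 18.1%, 35.4% and 0.988%. The shares of higher peaks were 3.19%, 5.14%, 1.77% and 4.88% after 3 h. After 24 h they were 6.86%, 5.53%, 3.5998% and 7.11%. The deviations of equal numbers correlated at 0.106, 0.0770 and 0.140 between pairs of times. They are positive but weak, and the labels give no source of pairing, so the fit without the block was kept, and whether the numbers mark a shared source is not known. Depth of the TWIST1 libraries is unknown, which limits what an absent peak shows.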

Other observations

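Antigen receptor loci were examined after the heavy chain locus had stood out, and they differed in how many lymphoblast-only peaks they held. The immunoglobulin heavy chain locus (IGH, chr14:105583731-106875071, from its first to its last gene segment) held 120 lymphoblast-only peaks, or 9.29 per 100 kb, and no shared or hCNCC-only peak. Peaks of this locus, its strongest included, are also in the count given for TMEM121 above. The lambda light chain locus (IGL, chr22:22030934-22923034) held 98 lymphoblast-only, 4 shared and 2 hCNCC-only peaks, at 11.0 lymphoblast-only peaks per 100 kb. Over chromosomes 1 to 22 and X the mean was 1.95 lymphoblast-only and 1.52 hCNCC-only peaks per 100 kb. The kappa light chain locus (IGK) held 33 lymphoblast-only peaks at 2.39 per 100 kb, and 0 hCNCC-only peaks. The T cell receptor loci held 4.30 lymphoblast-only peaks per 100 kb for TRA and TRD, 4.49 for TRB and 2.33 for TRG, with 40, 23 and 3 peaks. They held 10, 4 and 4 hCNCC-only peaks, so that TRG had more hCNCC-only (3.11 per 100 kb) than lymphoblast-only peaks.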
